A study of Homo sapiens with 108 samples.

Results

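The MAZ arm of a SLAM-seq experiment in HEK293T, a human embryonic kidney line transformed with viral genes, comprised 12 of the 108 libraries of the series, chosen by the words MAZ knockdown in their titles. They were set against 47 libraries in which PHF7 (11 libraries), ZMAT3, ZMAT5 or ZNF706 (12 libraries each) had been knocked down instead. The PHF7 library of the 8 h chase labelled replicate 3, with 63659 reads, was left out, and no library with a non-targeting hairpin entered any comparison. In all 5 arms, cells were transduced with lentivirus carrying a short hairpin RNA (shRNA), selected with puromycin, labelled with 10 µM 4-thiouridine (4SU) for 24 h with new medium every 8 h, and then given 1 mM uridine for 0, 2, 4 or 8 h. Each arm and chase time had 3 libraries (2 for PHF7 at 8 h), which the labels call biological replicates. Every comparator is itself a knockdown, so a difference here is one between MAZ-depleted cells and cells depleted of another zinc-finger protein. An effect of low MAZ and an effect of its hairpin on other mRNAs cannot be told apart in this design.

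MAZ is a zinc-finger transcription factor that binds G-rich stretches in many promoters and works beside CTCF, the factor that bounds chromatin loops. In SLAM-seq, 4SU built into new RNA is alkylated and then read as C in place of T, so a labelled mRNA carries T>C conversions, and the label lost during a uridine chase follows the decay of the older mRNA. A hairpin is cut to a short guide RNA in Argonaute. Its target is the mRNA with full pairing, but bases 2 to 8 of the guide, the seed, can also pair with other mRNAs, as the seed of a microRNA does. The question behind the series was whether zinc-finger proteins, when bound to RNA, alter how long an mRNA lasts.

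Depth was of the same order in both sets, with 13906544 to 28110307 reads in 3′ UTRs per MAZ library and 9347942 to 30750027 per comparator library. Of 19 listed mRNAs of HEK293T identity, 16 had enough reads for testing, and the list summed to 637 to 836 read counts scaled to library size (CPM) in MAZ libraries and 578 to 809 CPM in the others. Of 28 markers of other cell types, 9 could be tested, and the whole list summed to 28.4 to 53.03 CPM in MAZ libraries and 16.9 to 76.7 CPM in the others, with MS4A1, SFTPC, MYH6, HBB and INS at no read in any library. In RNA from whole cultures, fewer cells of a kind and less RNA per cell cannot be told apart.

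MAZ mRNA (ENSG00000103495.13, hg38 chr16:29806106-29811164, plus strand) was low in every library titled MAZ. Its level in these libraries had a lowest value of 82.1, a median of 101 and a highest value of 122 CPM, scaled by the trimmed mean of M-values (TMM). Across the other 47 libraries the lowest value was 204, the median 428 and the highest 661 CPM. No MAZ library reached the lowest of the others. The mean was 102 ± 12.3 CPM (SD, n = 12) in the MAZ arm and 420 ± 107 CPM (SD, n = 47) in the comparators, a log2 difference of −1.996 (SE 0.068, edgeR adjusted p = 5.26e-37), so that 25.1% of the comparators' level was left. The fold depended on which arm stood on the other side, with log2 differences of −2.05 against PHF7, −2.39 against ZMAT3, −1.47 against ZMAT5 and −2.08 against ZNF706. ZMAT5-depleted cells held the least MAZ mRNA of the comparators, 204 to 357 CPM.

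The comparators' own targets checked the other labels. ZMAT5, a protein of the minor spliceosome, averaged 21.2 ± 4.95 CPM in MAZ libraries and 1.54 ± 1.26 CPM in ZMAT5 libraries (SD, n = 12 each; log2 difference 3.78), with counted bases shared with another gene. ZNF706 averaged 43.9 ± 5.54 CPM in MAZ libraries and 23.6 ± 9.37 CPM in ZNF706 libraries (log2 difference 0.91, adjusted p = 9.62e-06). PHF7 and ZMAT3 were weakly expressed, at 5.45 ± 2.12 CPM in MAZ libraries and 1.33 ± 1.60 CPM in PHF7 libraries (log2 difference 2.02), and at 14.1 ± 5.81 CPM in MAZ libraries and 7.02 ± 3.60 CPM in ZMAT3 libraries (log2 difference 1.00).

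Of 13286 genes tested, 1014 (7.63%) were higher and 841 (6.33%) lower in the MAZ arm than in the unweighted mean of the 4 other arms, at an adjusted p under 0.05 and a fold over 1.2. Against single arms, the calls numbered 1413 higher (10.6%) and 1234 lower (9.29%) for PHF7, 1173 (8.83%) and 1040 (7.83%) for ZMAT3, 1191 (8.96%) and 1141 (8.59%) for ZMAT5, and 719 (5.41%) and 794 (5.98%) for ZNF706. The 4 contrasts share the MAZ libraries and are not independent. A gene was called MAZ-specific when it passed in the same direction in the mean contrast and against each arm, which left 113 higher genes (0.851%) and 133 lower genes (1%). With upper-quartile in place of TMM scaling, which moved the median of all genes by less than 0.1, the split was 141 higher and 100 lower. Their median log2 difference was 0.65 for the higher genes and −0.57 for the lower ones, with 27 and 23 genes over 2-fold, while the median over all genes tested was 0.01. All 246 kept the sign of their difference at each of the 4 chase times. They were chosen on these same libraries over all times, so this is a description and no separate support. No gene passed the test of whether the MAZ difference depended on chase time (edgeR, adjusted p under 0.05, 0%), and 456 had an unadjusted p under 0.05.

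Some genes did not overlap between the 12 MAZ libraries and the other 47. All MAZ libraries lay above the others in 6 of the 13286 genes (0.0452%), which were TSC22D3, AMOT, UQCC5, ASNS, LRATD2 and OAF, and below them in another 6 (0.0452%), which were MAZ, NRAS, TFDP1, HAX1, CTPS1 and TYMS. UQCC5 and TYMS have counted bases in common with another gene. HAX1, CTPS1, OAF and UQCC5 were named after their values were seen, since they fall outside the rule for naming genes.

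TFDP1 (chr13:113584721-113641473) encodes DP1, the partner through which E2F factors bind the promoters of cell-cycle genes. Its level was lowest 58.5, median 80.0 and highest 112 CPM in MAZ libraries, and lowest 151, median 200 and highest 258 CPM in the others. All MAZ libraries lay below all the others, with much the same gap to each arm. The log2 difference was −1.31 (SE 0.067, adjusted p = 1.35e-26), with −1.39, −1.24, −1.31 and −1.29 against PHF7, ZMAT3, ZMAT5 and ZNF706. NRAS (chr1:114704469-114716771), a small GTPase that signals from growth-factor receptors, was at 116 (lowest), 149 (median) and 185 (highest) CPM in MAZ libraries and at 241, 322 and 558 CPM in the others. The sets were again apart, the log2 difference was −1.17 (SE 0.059, adjusted p = 9.92e-27), and the gap was widest against ZMAT5 (−1.51), whose libraries held the most NRAS.

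HAX1 (chr1:154272355-154275875), a mitochondrial protein that protects cells from apoptosis, was at 119 (lowest), 150 (median) and 198 (highest) CPM in MAZ libraries, against 217, 289 and 394 CPM in the others. Its log2 difference was −0.95 (SE 0.063, adjusted p = 2.46e-20). CTPS1 (chr1:40979300-41012565), which makes CTP from UTP, was at 79.4, 100.2 and 124 CPM in MAZ libraries and at 130, 177 and 228 CPM in the others, a log2 difference of −0.79 (SE 0.064, adjusted p = 1.57e-16). The highest MAZ library and the lowest of the others were close for CTPS1. NUDT21 (chr16:56429133-56452199), a subunit of the cleavage factor that favours distal poly(A) sites, was the called MAZ-specific member among 22 mRNAs of 3′ end processing (4.55%, against 1% MAZ-specific lower among all genes). In the mean contrast, 1 of the 22 rose and 2 fell (4.55% and 9.09%, against 7.63% and 6.33% of all genes). NUDT21 ranged over 82.2 to 133 CPM in MAZ libraries and 114 to 255 CPM in the others, with some overlap, and its log2 difference was −0.86 (SE 0.066, adjusted p = 1.59e-17).

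**Figure D1:**
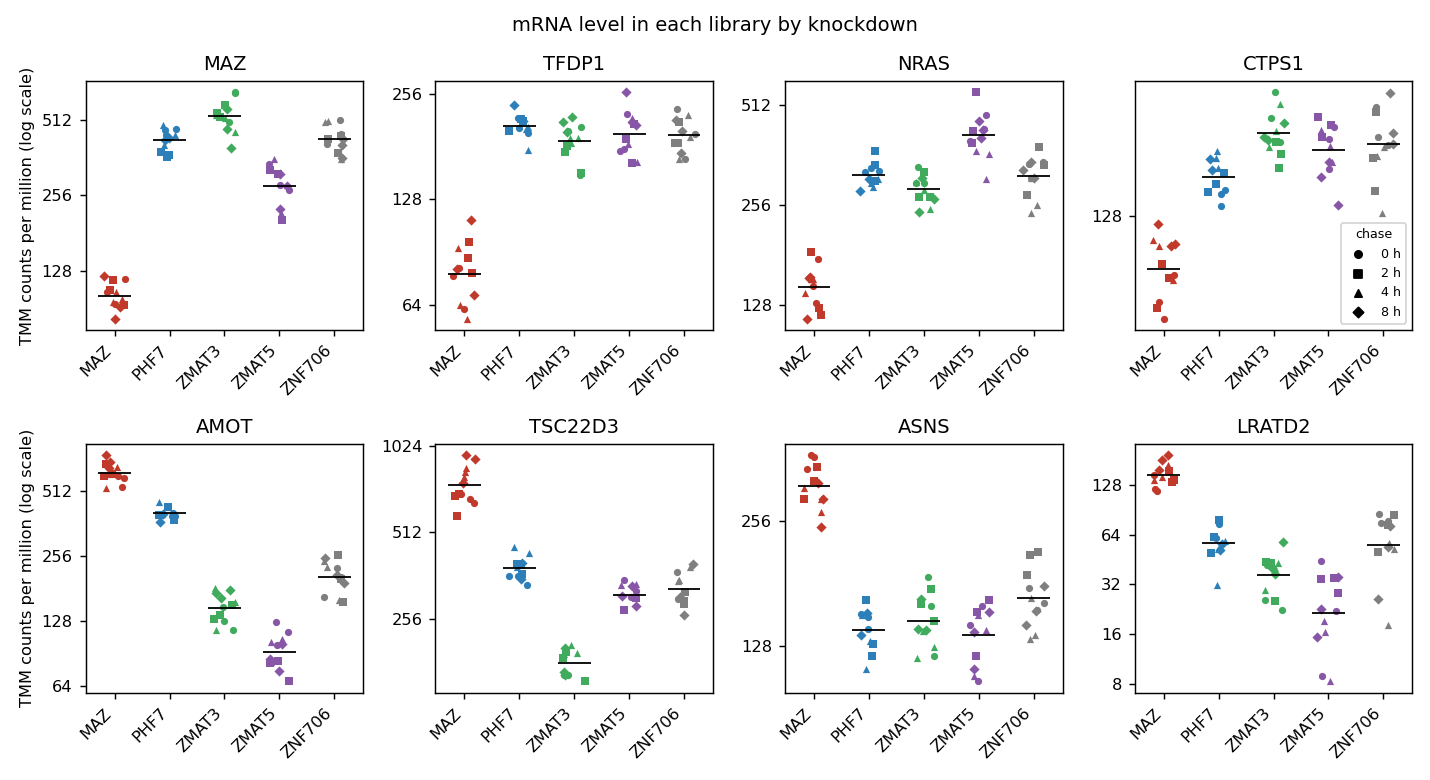
Level of 8 mRNAs in each library (TMM-scaled CPM, log axis) by knockdown arm, with the marker shape giving the chase time and the bar the geometric mean of the arm. MAZ libraries lie below all others for MAZ, TFDP1, NRAS and CTPS1 and above all others for AMOT, TSC22D3, ASNS and LRATD2, and the marker shapes are mixed within each arm.

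Other MAZ-specific mRNAs that fell most held fewer reads. CCN2, a secreted matrix protein induced by the YAP coactivator, was at 2.06 (lowest), 11.2 (median) and 22.3 (highest) CPM in MAZ libraries and at 10.4, 31.5 and 128 CPM in the others, so that the ranges overlapped. It fell by 1.85 on the log2 scale (SE 0.210, adjusted p = 9.34e-11), least against PHF7 (−1.17) and most against ZMAT5 (−2.90). ENO2, the neuronal enolase of glycolysis, fell by 1.76, KIF1A, a motor of synaptic vesicle precursors, by 1.52, and TP73, a p53-family factor, by 1.46. AMOTL2, an angiomotin, fell by 1.31, BMAL2, a clock factor, by 1.28, PABPC4L, of the poly(A)-binding protein family, by 1.23, ASPHD2 by 1.22 and FLNA, the actin crosslinker filamin A, by 1.14. All of them passed against each of the 4 arms. CCN1, the paralogue of CCN2, differed by −1.34 in the mean contrast, but by only −0.25 against PHF7, and it was not MAZ-specific.

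AMOT (chrX:112774503-112840831), a junction protein that holds YAP outside the nucleus, was the MAZ-specific higher mRNA with the smallest p after TSC22D3. It was at 524 (lowest), 608 (median) and 747 (highest) CPM in MAZ libraries and at 67.1, 165 and 455 CPM in the others. The sets did not overlap, but the PHF7 arm, at 366 to 455 CPM, came nearest and the ZMAT5 arm, at 67.1 to 127 CPM, lay farthest. The log2 difference was 1.75 on average (SE 0.058, adjusted p = 8.81e-38), 0.62 against PHF7, 2.08 against ZMAT3, 2.73 against ZMAT5 and 1.59 against ZNF706. AMOT and AMOTL2 thus moved in opposite directions. Of related genes looked up after these values were seen, TEAD2, a DNA-binding partner of YAP that shares counted bases with another gene, was MAZ-specific and higher (0.76), while AMOTL1 (−0.06) and YAP1 (0.01) did not pass.

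TSC22D3 (chrX:107713221-107777342), the leucine-zipper protein GILZ that glucocorticoids induce, was at 583 (lowest), 729 (median) and 950.0 (highest) CPM in MAZ libraries and at 155, 309 and 455 CPM in the others. The lowest comparator arm was ZMAT3, at 155 to 207 CPM, and the log2 difference was 1.38 (SE 0.044, adjusted p = 9.14e-39). LRATD2 (118, 145 and 194 CPM in MAZ libraries against 8.28, 43.1 and 86.0 CPM in the others) rose by 1.84 (SE 0.128, adjusted p = 1.89e-19). OAF was at 66.5, 83.7 and 101 CPM in MAZ libraries and at 26.5, 41.3 and 64.5 CPM in the others, a log2 difference of 0.97. Further mRNAs among the strongest rises were G0S2, an inhibitor of lipolysis (2.03), DDIT4, an inhibitor of mTORC1 (1.82), the cyclin CCND2 (1.74), the G-protein subunit GNG4 (1.49), the synaptic vesicle protein SYP (1.48), the mitochondrial creatine kinase CKMT1A (1.43), ASS1, of arginine synthesis (1.29), and CTH, which makes cysteine (1.205). For CCND2 the ZMAT3 arm was nearest, with a log2 difference of 0.76.

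**Figure D2:**
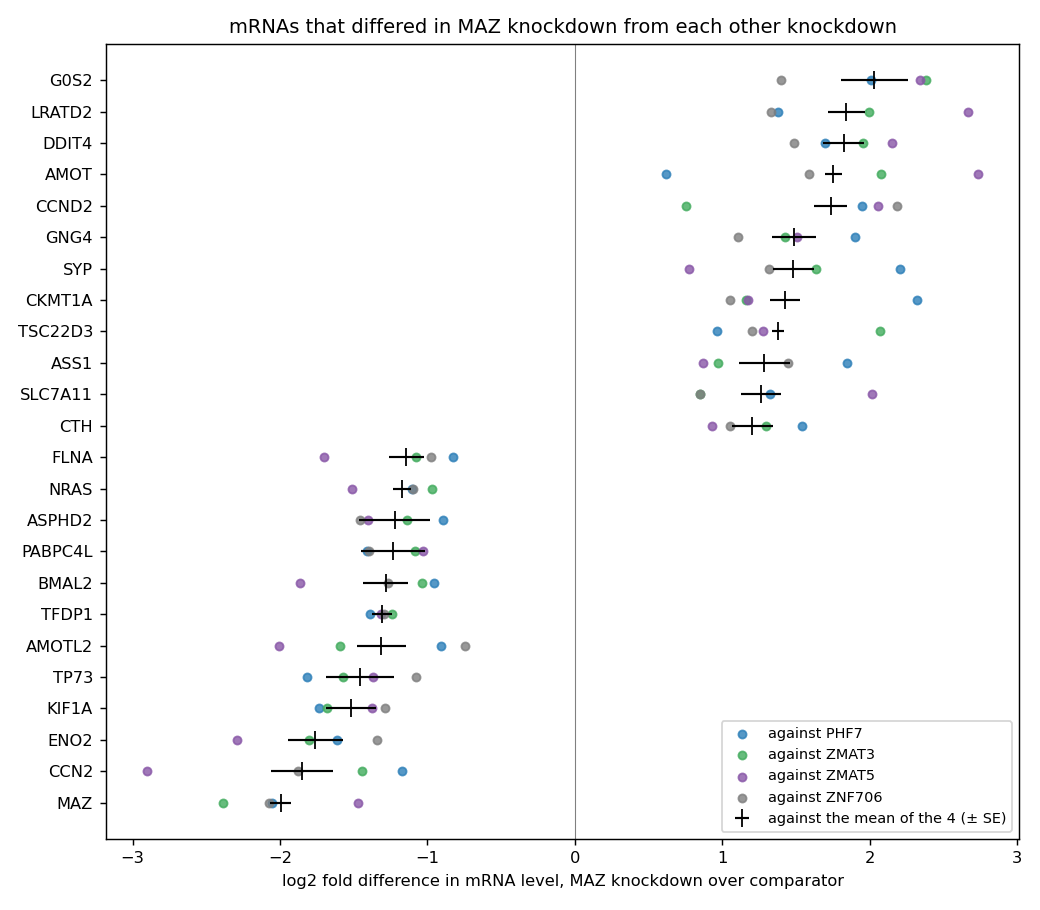
Log2 fold difference in level, MAZ knockdown over comparator, for the 12 MAZ-specific mRNAs of largest rise and the 12 of largest fall under the naming rule, with coloured points for each comparator arm and a black mark ± SE for the mean contrast. AMOT spans 0.62 to 2.73 and CCN2 −2.90 to −1.17 over the arms, while the TFDP1 points lie within −1.39 to −1.24.

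Among the 28 listed mRNAs of ATF4 and the unfolded protein response, 11 rose and 1 fell in the mean contrast (39.3% and 3.57%, against 7.63% and 6.33% of all genes), with a list median of 0.20. Of the 28, 7 were MAZ-specific, all of them higher (25.0%, against 0.851% of all genes). ASNS, which makes asparagine, was at 247 (lowest), 312 (median) and 368 (highest) CPM in MAZ libraries and at 105, 150 and 215 CPM in the others. No library overlapped, and the log2 difference was 1.07 (SE 0.056, adjusted p = 5.62e-26), between 0.89 and 1.18 over the 4 arms. CHAC1, which degrades glutathione, rose by 2.72 (SE 0.324, adjusted p = 4.56e-10) at a low level of 8.49 to 41.2 CPM in MAZ libraries and 0 to 13.2 CPM in the others. SLC7A11, the cystine importer, rose by 1.26, STC2, a secreted glycoprotein, by 1.18, SESN2, a leucine sensor, by 0.79, PSAT1 by 0.54 and PHGDH by 0.47, the last pair being enzymes of serine synthesis. The endoplasmic reticulum chaperones HSPA5 (0.36) and CANX (0.37) and the mRNA of ATF4 itself (0.30) rose in the mean contrast without being MAZ-specific. ATF3 was the member that fell (−0.47).

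Part of the listed cell-cycle mRNAs fell in MAZ libraries. Of 30 listed for G2/M and mitosis, 15 fell and 0 rose (50.0% against 6.33% of all genes tested), with a median of −0.29. The scaffold protein ANLN (−0.73), the cytokinesis factor ECT2 (−0.45) and the survivin gene BIRC5 (−0.33) fell against each arm. They made up 10.0% of the list, against 1% MAZ-specific lower among all genes. Of 30 mRNAs for G1/S and DNA replication, 9 fell and 1 rose, with a median of −0.16. The MAZ-specific members were CCNE2, cyclin E2 (−1.35), RRM2, a subunit of ribonucleotide reductase (−0.71), TYMS, thymidylate synthase (−0.46), and the helicase subunit MCM4 (−0.37). These were 13.3% of the list, against 1% of all genes. RRM2 was at 194 (lowest), 252 (median) and 280.0 (highest) CPM in MAZ libraries and at 267, 399 and 530.0 CPM in the others, with ranges that overlapped narrowly. CCNE1 was the member that rose (0.46).

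For ribosomal protein mRNAs, the counts differed between the comparators. Of 84 tested, 41 rose and 3 fell in the mean contrast (48.8% and 3.57%, against 7.63% and 6.33% of all genes), and the list median was 0.59 against PHF7, 0.35 against ZMAT3, 0.08 against ZMAT5 and 0.04 against ZNF706. Against the single arms, 62 rose and 1 fell for PHF7, 44 and 3 for ZMAT3, 14 and 7 for ZMAT5, and 7 and 6 for ZNF706. The MAZ-specific members numbered 4, all higher (4.76%, against 0.851% of all genes), among them RPS28 (0.75, with shared bases) and RPS12 (0.62). Of 77 mRNAs of oxidative phosphorylation, 25 rose (32.5%, against 7.63% of all genes) and 0 fell, with a median of 0.20. The list had 6 MAZ-specific members, all higher (7.79%, against 0.851% of all genes). Among them were NDUFS5 of complex I (0.78) and ATP5MF of ATP synthase (0.70).

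Of the 38 mRNAs of the decay machinery, 3 rose and 11 fell (28.9% against 6.33%), with a median of −0.09. The decapping factors DCP1A (−0.66) and DCP2 (−0.42) were MAZ-specific (5.26% of the list, against 1% of all genes). Among 34 mRNAs of actin, myosin and adhesion, 3 rose and 9 fell (8.82% and 26.5%, against 7.63% and 6.33% of all genes). FLNA was the MAZ-specific member (2.94%). Among 25 of the extracellular matrix and TGF-β signalling, 2 rose and 6 fell (8.0% and 24.0%). The receptor TGFBR1 (−0.52) joined CCN2 as MAZ-specific (8.0% of the list). SCD, the fatty-acid desaturase, was MAZ-specific and higher (0.44). In the mean contrast, cholesterol, heat shock, interferon, p53, MYC-linked, glycolysis, tubulin and mitochondrial ribosome lists had medians within −0.10 and 0.09. They had at most 2 MAZ-specific members in either direction. For some of them the single arms differed more. The interferon median was −0.41 against ZMAT5 and 0.16 against ZNF706, and the tubulin median −0.32 against ZMAT5 and 0.17 against ZMAT3.

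Of 12 genes that earlier work linked to MAZ, 8 could be tested. None passed in either direction in the mean contrast by edgeR (1 had an unadjusted p under 0.05), with a list median of 0.06. Against single arms, 1 was higher for PHF7, 2 were lower for ZMAT3 and 2 higher for ZMAT5, where the list median was 0.33. The matching shares of all genes were 10.6%, 7.83% and 8.96%. MYC was at 60.02 (lowest), 92.5 (median) and 143 (highest) CPM in MAZ libraries and at 37.3, 80.9 and 174 CPM in the others, with ranges that overlapped throughout (log2 difference 0.13, SE 0.103, adjusted p = 0.463). VEGFA (0.38, adjusted p = 0.0709) and HRAS (−0.18) did not pass in the mean contrast, and 99.9% of HRAS reads were multimapped. Of 25 zinc-finger factors that bind G-rich or GC-box sites, 5 fell and 0 rose in the mean contrast (20.0% lower against 6.33% of all genes). EGR1 (−1.19), KLF10 (−0.59), PATZ1 (−0.38), SP2 (−0.38) and KLF16 (−0.36) fell, and none was MAZ-specific. Of 15 mRNAs for CTCF and cohesin, 3 fell and 0 rose (20.0% lower), and WAPL, which releases cohesin from DNA, was the MAZ-specific member (−0.31, adjusted p = 0.000411). The G-rich motif GGGAGGG, searched on both strands in the 300-base RefSeq promoters of GRCh38.p14, was present in 24 of 81 matched promoters of MAZ-specific higher genes (29.6%), 35 of 113 of lower genes (31.0%), 32.4% of genes tested and 25.4% of all promoters.

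Label in the mRNA pool differed between the arms before any chase. Summed over 6250 genes, conversions per covered T at 0 h, the pooled rate, came to 3.12%, 3.02% and 2.74% in the MAZ libraries, a mean of 2.96 ± 0.195% (SD, n = 3). It was 2.27 ± 0.0743% in PHF7, 3.03 ± 0.523% in ZMAT3, 1.28 ± 0.0418% in ZMAT5 and 2.31 ± 0.215% in ZNF706 libraries (SD, n = 3 each). The exact two-sided permutation test gave p = 0.1, 0.9, 0.1 and 0.1 for these 4 comparisons (0.133, 0.9, 0.133 and 0.133 after adjustment), and 0.1 is the smallest p that 3 against 3 allow. Per hour of chase, the natural log of this rate fell by 0.152 in the MAZ arm and by 0.117, 0.125, 0.112 and 0.133 in PHF7, ZMAT3, ZMAT5 and ZNF706 (permutation test, adjusted p = 0.254, 0.377, 0.446 and 0.377). The MAZ fall was the steepest in size. The test exchanged libraries between arms within each time with their levels uncentred, so unlike label between arms widened its spread. ZMAT5, lowest in label, had the largest difference in slope (0.0397 per h) and also the largest p. The test thus cannot judge slopes between arms of unlike label, and no conclusion is drawn from it. At 4 h, MAZ replicate 1 stood apart with a pooled rate of 2.86%, against 1.63% and 2.11% in the other MAZ libraries of that time.

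Half-lives from first-order curves had a median of 4.43 h over 7214 mRNAs in the MAZ arm, and of 4.83 h in PHF7, 5.06 h in ZMAT3, 4.04 h in ZMAT5 and 4.12 h in ZNF706. Gene by gene, the median log2 ratio of MAZ over the other arm was −0.20 for PHF7 (6521 mRNAs), −0.20 for ZMAT3 (6690), −0.04 for ZMAT5 (5123) and 0.04 for ZNF706 (5907). Curves fitted per replicate gave log2 differences of −0.12, −0.18, 0.07 and 0.09 in the same order, with exact permutation p = 0.5, 0.7, 0.4 and 0.5 (n = 3 each). Since 3 against 3 cannot give a p below 0.1, this test could not pass the threshold. Each curve per replicate joined libraries of the same number, and whether a number marks the same culture across chase times was not tested. The PHF7 curve of replicate 3 had no 8 h point. MAZ-specific lower mRNAs had median log2 ratios of −0.36, −0.39, −0.25 and −0.14 against PHF7, ZMAT3, ZMAT5 and ZNF706, while MAZ-specific higher mRNAs had −0.30, −0.23, −0.06 and 0.03.

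Loss of label over the chase was tested for each of 7398 mRNAs as the slope of the T>C rate. There were 10 mRNAs (0.135%) that lost label faster in the MAZ arm than in the mean of the others, none was slower, and none passed against each single arm, although 622 faster and 20 slower mRNAs had an unadjusted p under 0.05. The median difference over all mRNAs was 0.0313 per h, toward faster loss in MAZ, and 79.2% of mRNAs had that sign. All 10 had a negative log2 difference in level, where the median over all 13286 genes tested for level was 0.01. Of the 7398 mRNAs, 114 were MAZ-specific lower genes, and 6 of the 10 were among these, MAZ, NRAS, TFDP1, CTPS1, ITPRID2 and AP1B1. The link between level and label loss was not tested. For the 114 MAZ-specific lower mRNAs tested the median was 0.0510 per h, and for the 96 higher ones 0.0266 per h with 0 called.

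NRAS mRNA carried 3.49%, 3.58% and 3.52% T>C conversions at 0 h in the MAZ libraries, and 0.540%, 0.565% and 0.584% at 8 h. At 8 h the other arms held 1.11% and 1.11% (PHF7), 1.40%, 1.496% and 1.41% (ZMAT3), 0.574%, 0.416% and 0.868% (ZMAT5) and 0.902%, 0.865% and 0.920% (ZNF706). MAZ libraries started above the others and ended below all but ZMAT5, whose label was low from the start. The rate of loss was 0.228 per h in the MAZ arm and 0.111 per h in the others (difference 0.118, SE 0.0230, adjusted p = 0.00825).

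The mRNA of MAZ itself carried 3.32%, 4.05% and 3.26% conversions at 0 h and 0.357%, 0.571% and 0.479% at 8 h in MAZ libraries. Its loss was 0.244 per h in the MAZ arm and 0.1196 per h in the others (difference 0.124, SE 0.0237, adjusted p = 0.00773), and its fitted half-life was 2.67 h in the MAZ arm, 8.27 h in PHF7, 7.81 h in ZMAT3, 6.40 h in ZMAT5 and 5.39 h in ZNF706. Its half-life was thus shortest in the arm in which it was knocked down. TFDP1 lost label at 0.281 per h in the MAZ arm and 0.137 per h in the others (adjusted p = 0.0168), and CTPS1 at 0.285 and 0.138 per h (adjusted p = 0.0274). SLC3A2, the heavy chain that anchors SLC7A11 at the cell surface, had the smallest p, with 0.395 per h in the MAZ arm and 0.204 per h in the others (adjusted p = 0.00485), although its level did not pass the test (−0.15, adjusted p = 0.115). ITPRID2 (0.536 per h in the MAZ arm, 0.244 per h in the others), LIMA1, an actin-binding protein (0.457 and 0.220 per h), ASB1 (0.635 and 0.228 per h), HAUS6, of the augmin complex of the spindle (0.422 and 0.297 per h), and the clathrin adaptor AP1B1 (0.144 and 0.0482 per h) made up the 10.

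**Figure D3:**
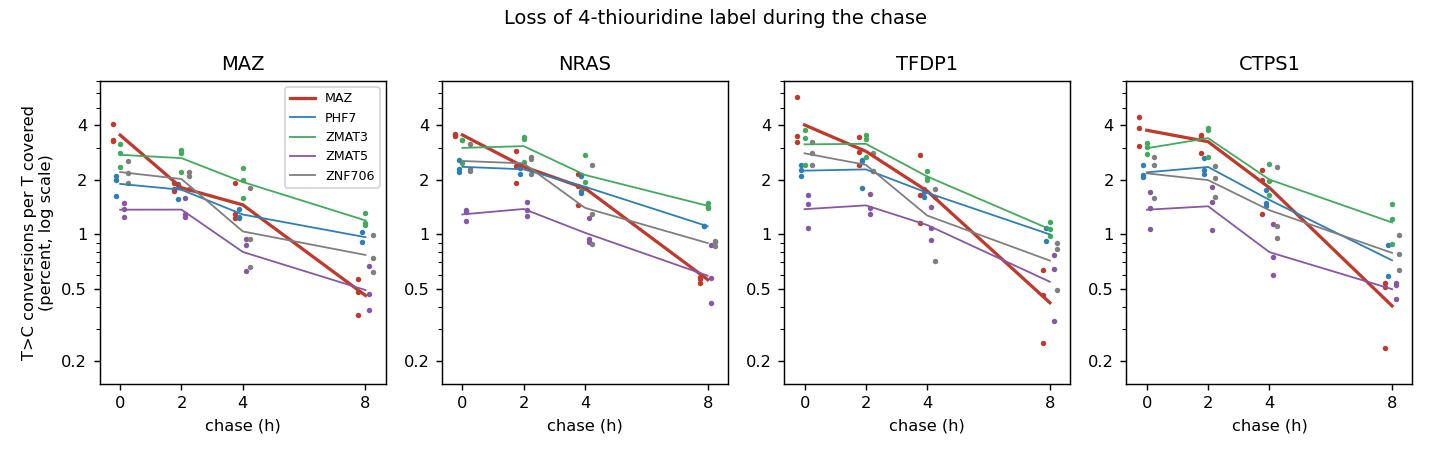
T>C conversions per covered T (percent, log axis) over the uridine chase (h) for 4 mRNAs, with a point for each library and a line through the geometric means of each arm. In each panel the MAZ line is the steepest, for NRAS from 3.49% to 3.58% at 0 h to 0.540% to 0.584% at 8 h.

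These calls were fragile. Without replicate number 1, 2 or 3 only 0 to 1 of the 7398 mRNAs passed, and without the ZMAT3 arm none did. Leaving out the MAZ 4 h library of replicate 1, a setting chosen after the data were seen, gave 27 faster mRNAs. When the pooled rate of each library was placed in the model, so that each mRNA was compared with its own library, 26 mRNAs were faster and 5 slower in the MAZ arm. All 10 mRNAs above were among the 26, and NRAS and MAZ then passed against each of the 4 arms. In the separate test of label relative to the pool, 1 of 7398 mRNAs was higher (0.0135%) and none lower (139 and 104 at an unadjusted p under 0.05). This was RPLP0, of the ribosomal stalk (log2 difference 0.24, SE 0.045, adjusted p = 0.0101), whose reads were 25.6% multimapped and which was lower in level (−0.32).

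Sequence was examined next, since a guide RNA can act on mRNAs that hold a match to its seed. For all heptamers, runs of 7 bases, the mean log2 difference in level was taken over the mRNAs whose counted 3′ UTR held them. It was adjusted for 3′ UTR length, with differences capped at 2 either way, over 9111 mRNAs of at least 10 CPM. Heptamers were ranked by a score, this mean times the square root of the number of such mRNAs, divided by the spread over all mRNAs. Of 16378 heptamers ranked, TCGGCTT was lowest in the mean contrast. Its rank from the lowest was 1 against PHF7, 2 against ZMAT3, 31 against ZMAT5 and 1 against ZNF706. The heptamer was found from these levels, so the differences of its mRNAs are a description with no test. It lay in 416 mRNAs (4.57%), whose median log2 difference was −0.11, against −0.02 over all 9111. Of the MAZ-specific lower mRNAs searched, 29 of 127 held it (22.8%), and MAZ itself, the intended target, was among the 29. Of the higher ones, 3 of 107 held it (2.8%), which were SYP, HOXB9 and KCTD13. The heptamer GGCTTAA, which overlaps it in 5 bases but is absent from the MAZ mRNA, ranked next. It was in 23.6% of lower and 4.67% of higher mRNAs. The heptamers ranked 3 to 11 lacked GGCTT, and most were rich in A and T. They too were more frequent in lower than in higher mRNAs, as TTAATTT at rank 3 (52.0% and 15.9%, against 40.9% of all searched). The top of the ranking is therefore not 1 sequence family. Holders also had longer counted 3′ UTRs, with medians of 3971 bases with TCGGCTT and 2042 bases without, and MAZ-specific lower mRNAs (2660 bases) were longer there than higher ones (991 bases). The part of length in these shares was not tested beyond the adjustment.

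The heptamer occurs in the mRNA of MAZ at base 1380 of its 2540-base canonical transcript, in the coding sequence. The intervals counted as 3′ UTR for MAZ also held it. The next sequences show the stretch of MAZ around it beside a choice of the mRNAs whose level or label loss stood out. They are in the sense of the transcript, 5′ to 3′, from hg38. Capitals mark the heptamer in MAZ and, in the others, the longest shared run that holds its last 5 bases, GGCTT. Runs without GGCTT were not searched. Others that were searched are not shown, among them HAUS6 (shared run of 9 bases, coding), ASB1 and FLNA (8 each), CCN2 (7), and LIMA1 and ENO2 (6 each).
MAZ (chr16:29808662-29808682, plus strand, coding): gctgagcTCGGCTTatatttc
TFDP1 (chr13:113640280-113640300, plus strand, 3′ UTR): ttcagatTCGGCTTcaggaaa
CTPS1 (chr1:41011710-41011730, plus strand, 3′ UTR): tttacaCTCGGCTTtggagac
NUDT21 (chr16:56429942-56429962, minus strand, 3′ UTR): aagcaaTCGGCTTAaaattcc
AP1B1 (chr22:29327856-29327876, minus strand, 3′ UTR): gaaagatTCGGCTTttggcaa
WASF2 (chr1:27406574-27406594, minus strand, 3′ UTR): gctgaaaTCGGCTTctgctgg
HAX1 (chr1:154272748-154272768, plus strand, coding): ggcttttTCGGCTTtcctgga
NRAS (chr1:114706018-114706038, minus strand, 3′ UTR): ttcctgaGGCTTATcacctca
ITPRID2 (chr2:181930647-181930667, plus strand, 3′ UTR): ctaaaaGGCTTATAaatgttt

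TFDP1, CTPS1, NUDT21, AP1B1 and WASF2, an actin regulator that fell by 1.01, held the heptamer in their counted 3′ UTRs, and HAX1 held it 3 times in its mRNA but not there. NRAS and ITPRID2 lacked it and held GGCTTAT, a heptamer of the same MAZ stretch shifted by 2 bases, which ranked 12 from the lowest and was in 21.3% of lower and 4.67% of higher mRNAs. In AMOTL2, KIF1A, RRM2, TYMS and SLC3A2, no shared run around GGCTT was longer than those 5 bases. For label loss, the median difference of mRNAs with TCGGCTT was 0.0391 per h against 0.0313 per h over all, and the heptamer ranked 40 from the fastest. A match is only a match in letters, and the sequence of the MAZ hairpin was not analysed here. Whether these runs face its seed was not tested.

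**Figure D4:**
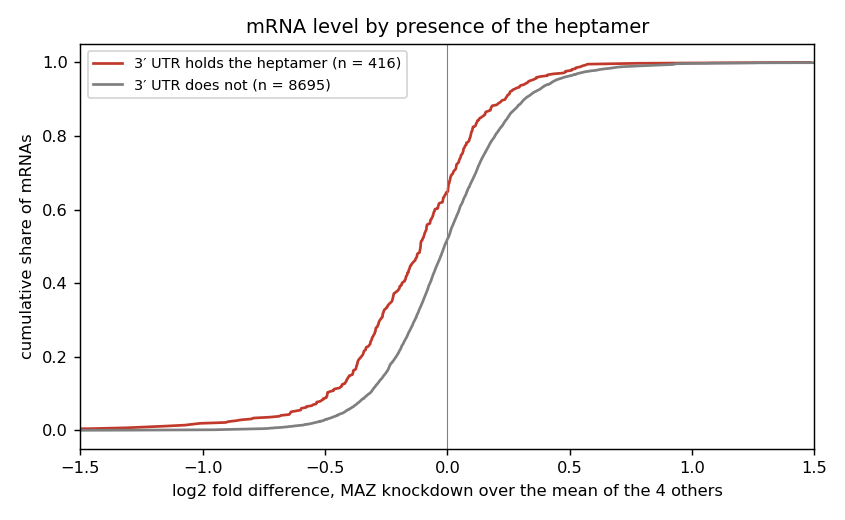
Cumulative share of mRNAs against the log2 fold difference in level, MAZ knockdown over the mean of the 4 others, for 416 mRNAs whose counted 3′ UTR holds TCGGCTT and 8695 without it. The curve of the holders lies to the left, with medians of −0.11 and −0.01.

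The comparators' hairpin targets were known, and levels were described by their windows. For every 7-base window of each 21-base target, the mean log2 difference of MAZ over that arm was taken over mRNAs with the window in their counted 3′ UTR, adjusted for length. The targets of 3 hairpins are shown as mRNA sense, 5′ to 3′, with the window of the highest mean in capitals. The PHF7 target crosses an exon junction on chromosome 3.
PHF7: ccgcaagtgcaTACAGAAata
ZMAT3 (chr3:179030970-179030990, minus strand, coding): catggtaagaaACTCCGAaat
ZMAT5 (chr22:29748423-29748443, minus strand, coding): gaaggtctggTACGACAtgtt

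The highest window began at base 12 of the target for PHF7, ZMAT3 and ZNF706 and at base 11 for ZMAT5. In an antisense guide that starts opposite the last base of the target, the seed would face bases 14 to 20, so the peaks lay 2 or 3 bases nearer the 5′ end of the target. mRNAs with the PHF7 window (2281) were on average 0.07 higher on the log2 scale in MAZ than in PHF7 libraries, those with the ZMAT3 window (259) 0.15 higher than in ZMAT3 libraries, those with the ZMAT5 window (202) 0.22 higher than in ZMAT5 libraries, and those with the ZNF706 window (1266) 0.05 higher than in ZNF706 libraries. Ranked by the same score as above, from the highest among the 16378 heptamers, these windows stood at 1 for PHF7 and ZMAT5, 24 for ZNF706 and 54 for ZMAT3. The windows were picked for their means, which are a description. Their part in the calls against single arms was not tested.

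**Figure D5:**
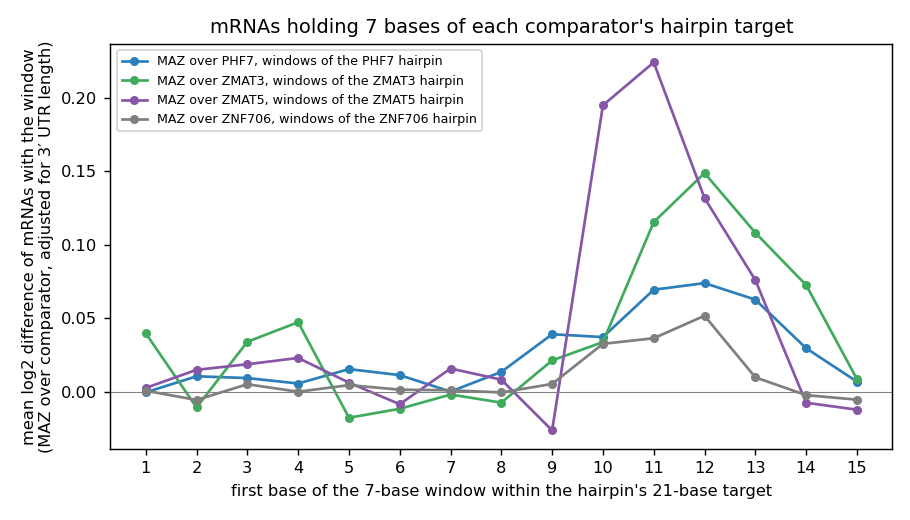
Mean log2 difference in level, MAZ over the comparator named, of mRNAs holding each 7-base window of that comparator's hairpin target, adjusted for 3′ UTR length, against the window's first base in the target. Each line peaks at base 11 or 12, at 0.07 for PHF7, 0.15 for ZMAT3, 0.22 for ZMAT5 and 0.05 for ZNF706.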

How the data were processed

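The authors trimmed QuantSeq 3′ end reads and mapped them with SlamDunk 0.4.3 to hg38, and the deposited tables give, per library, read counts, counts of covered T positions and counts of T>C conversions for 69079 3′ UTR intervals of 19761 genes. The deposited CPM column, scaled by the authors to mapped reads, served the 5 CPM minimum of the label tests. Variant masking and strand use were not given in the sources used here. No molecular identifiers are recorded, so depth covers counting error only.

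Counts were summed per Ensembl identifier and named by GENCODE release 44. Levels were tested with edgeR 4.0.16 in R 4.3.3 (TMM, filterByExpr, quasi-likelihood, Benjamini-Hochberg over all genes) on all 59 libraries, with arm and chase time in the model (51 residual degrees of freedom). Label loss and relative label modelled conversions, offset by the log of covered T positions, where a gene passed 5 CPM in 2 or more replicates per arm and time. Half-lives followed the study's methods (R² over 0.6). Pooled rates were tested by permutation (exact, or 100000 resamples, two-sided). The model scripts were tested on simulated data.

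Named were the 5 targeted genes, the 12 MAZ-specific genes of largest rise and fall (at least 10 CPM, under 20% multimapped reads, no shared bases), the leading genes of the label tests and the leading called list members. Other genes were named after their values were seen, and a few are not reported here. Members and gene lists were chosen with earlier results of these data known. Alternatives were DESeq2 1.42.0, limma 3.58.1, other scalings and filters, left-out arms, times and replicates, and a replicate block. Replicate numbers did not pair MAZ with comparator libraries of the same chase time.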

Additional observations from a re-analysis of the deposited data

How the results depend on the processing

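DESeq2, RLE or upper-quartile factors, no filter on low counts, removal of multimapped reads, a retained shallow PHF7 library and leaving out MAZ 4 h replicate 1 (chosen after the data were seen) kept each count of expression calls within 1.5 times (99 and 115 MAZ-specific for the last). DESeq2 shared 236 of the 246 MAZ-specific genes. Without replicate number 1, 2 or 3, 727 to 793 genes were higher and 589 to 619 lower, with 59 to 78 and 69 to 86 MAZ-specific. MAZ-specific counts were 138 higher and 156 lower without the PHF7 arm, 128 and 145 without ZMAT3, 214 and 253 without ZMAT5, and 265 and 298 without ZNF706. Each such setting changes both the mean contrast and the number of arms to pass, and the cause was not tested. With fewer samples per fit, higher, lower, MAZ-specific higher and MAZ-specific lower genes numbered 423, 281, 19 and 22 at 0 h alone, 181, 123, 9 and 13 at 2 h, 75, 46, 4 and 7 at 4 h, and 155, 106, 11 and 11 at 8 h. Of 57 named genes followed, 56 kept their call in the mean contrast in every setting over all times, and 1 lost it without multimapped reads. All but CCN1 had been chosen as MAZ-specific, and whether each stayed MAZ-specific was not followed. No direction reversed.

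Label loss was less settled. Faster mRNAs numbered 26 (2 MAZ-specific) beside 5 slower with the pooled rate in the offset, 25 with limma, 27 without MAZ 4 h replicate 1, and 1, 0, 17 and 23 (3 MAZ-specific) without the PHF7, ZMAT3, ZMAT5 or ZNF706 arm. Without a replicate number, 0 to 1 were faster, 0 slower and 0 MAZ-specific. The cause was not tested. For relative label, the higher count was 0 to 1 without a replicate number, 0 without the PHF7 arm, at 0, 2 or 4 h alone and with limma (5 lower), 2 without the ZMAT3 arm (2 lower) and 2 without the ZNF706 arm (1 lower, 1 MAZ-specific higher). Without the ZMAT5 arm 2 were lower.

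Between MAZ and comparator libraries of the same chase time, replicate numbers did not pair the samples. Deviations of same-numbered libraries correlated with a median of 0.003 over 47 pairs, against −0.002 over 94 pairs of different numbers. Pairing across chase times was not tested. A replicate block gave 1022 higher and 837 lower genes, 110 and 134 MAZ-specific, 9 mRNAs with faster label loss and 1 with higher relative label.

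Leaving out a replicate number moved the pooled rate at 0 h, MAZ minus comparator, over 0.621 to 0.798 percentage points for PHF7, −0.378 to 0.279 for ZMAT3, 1.58 to 1.81 for ZMAT5 and 0.554 to 0.698 for ZNF706. The difference in its fall ranged over 0.0246 to 0.0441, 0.0133 to 0.0382, 0.0251 to 0.0476 and 0.0111 to 0.0230 per h in the same order. The half-life shift ranged over −0.19 to 0.01, −0.46 to 0.20, 0.05 to 0.19 and −0.05 to 0.26. With 3 against 3 values, the exact tests of the 0 h rate and of half-life cannot go below p = 0.1, whatever the difference.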
